A study of Homo sapiens with 16 samples.

Results

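Iron transport and storage genes are described here in breast cancer cells grown flat and as spheroids. The set holds 10 genes of the 58735 in the count table. They were chosen by gene name, from knowledge of how cells import, export and store iron, with earlier results of these libraries in view. The rise of CP in HCC1806 spheroids was among those results, so CP in that contrast is given as a description with no test. The adjusted p-values of the other members describe the fit over all genes and are no independent support.

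Poly(A) RNA was sequenced from 4 established breast cancer cell lines of human origin, in 16 libraries that form 8 groups of 2. Both HCC1806 and BT474 grew as 2D monolayers and as 3D spheroids taken at day 10 and day 20. For CAL148 and ZR-75-30 there are 2D monolayers only. No drug or genetic change is named for any group. By general knowledge HCC1806 and CAL148 are triple-negative lines, and BT474 and ZR-75-30 carry extra ERBB2. HCC1806 and ZR-75-30 grew in RPMI and BT474 and CAL148 in DMEM, each with 10% serum, so a line and its medium cannot be told apart between those pairs. Groups were read from the sample titles, since a separate treatment label names the monolayer for all 16 libraries. Nothing states whether replicates were separate cultures, so p-values measure only the spread between these libraries.

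Cells take up iron bound to transferrin through the transferrin receptor TFRC. In the endosome the reductase STEAP3 reduces the iron, and the transporter SLC11A2 (DMT1) carries it to the cytosol. Ferritin, a shell built from FTH1 and FTL chains, stores what is not used, and NCOA4 delivers ferritin to lysosomes for breakdown. Ferroportin (SLC40A1) is the known exporter of iron from cells, and it works with the copper oxidases ceruloplasmin (CP) and hephaestin (HEPH). Lipocalin 2 (LCN2) is a secreted protein that binds iron-loaded siderophores.

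Much of this control acts on RNA through the iron-responsive element, a short hairpin bound by the proteins IRP1 (ACO1) and IRP2 (IREB2) when iron is low. In a 5′ UTR the bound element blocks translation, and in the 3′ UTR of TFRC it protects the RNA. GENCODE 29 transcripts on GRCh38 were searched for a strict form of the element. It matched 4 of the 10 members, shown here because they link import, export and storage. The capitals mark the loop, searched as CAGTGN with 5 pairs of stem (G-T pairs allowed) and an unpaired C before it, on the transcript strand only. Positions are given in the text after the sequences.
SLC40A1 5′ UTR: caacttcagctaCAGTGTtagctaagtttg
FTH1 5′ UTR: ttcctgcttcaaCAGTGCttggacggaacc
FTL 5′ UTR: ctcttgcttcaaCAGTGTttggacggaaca
TFRC 3′ UTR site 1: aattatcggaagCAGTGCcttccataatta
TFRC 3′ UTR site 2: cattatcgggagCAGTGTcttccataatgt
TFRC 3′ UTR site 3: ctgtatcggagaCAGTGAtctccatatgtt
TFRC 3′ UTR site 4: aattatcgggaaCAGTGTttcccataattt

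The SLC40A1 element lies at chr2:189580660-189580689 on the minus strand, and that of FTH1 at chr11:61967573-61967602 on the minus strand. The FTL element lies at chr19:48965335-48965364 on the plus strand. The 4 TFRC matches are on the minus strand of chromosome 3, at 196050978-196051007, 196050574-196050603, 196050509-196050538 and 196050462-196050491. The same search matched the 5′ UTR of 31 of 18738 genes (0.165%) and the 3′ UTR of 128 of 19045 (0.672%). Elements with a mismatch in the stem or another loop sequence are missed, so members without a match may still carry one. A match is a description of letters, and RNA counts do not measure translation, the step the 5′ element acts on.

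Library totals ran from 29.7 to 72.5 M counts, and 3 counts, taken as the floor of detection, equalled 0.0458 to 0.139 CPM. CPM is the count set to a common library total of 1 M, scaled between libraries by TMM factors. Both HCC1806 monolayer libraries stood apart from each other, with an SD of the log2 difference between replicates of 1.65 over 11715 genes, against 0.234 to 0.376 in the HCC1806 and BT474 groups other than this one, 0.799 in CAL148 and 0.971 in ZR-75-30. Mitochondrial transcripts took 17.8% and 0.768% of the counts in that pair, 1.96% and 20.5% in ZR-75-30, and 1.09% to 6.3% elsewhere. Summed CPM of 6 epithelial markers was 1750 to 10400. Summed CPM of 14 markers of other cell types was 4.51 to 119, of which COL1A1 held 1.76 to 110. The leukocyte markers PTPRC and CD3E had at most 4 counts in any library.

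All 10 members had counts in at least 1 library, but at very different levels. FPKM divide by the gene length listed with the counts (2030 bases for FTH1 and 878 for FTL). That length need not be the length of the transcripts expressed, so levels compared between genes depend on it. On this scale FTH1 (430 to 1040 FPKM) and FTL (390 to 5750 FPKM) stood far above TFRC (11.8 to 128 FPKM) and SLC40A1 (0.961 to 37.1 FPKM). NCOA4 lay between 26.9 and 79.9 FPKM, STEAP3 between 4.71 and 20.4 and SLC11A2 between 2.54 and 11.4. CP reached at most 3.5 FPKM and HEPH at most 0.145 FPKM.

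**Figure D1:**
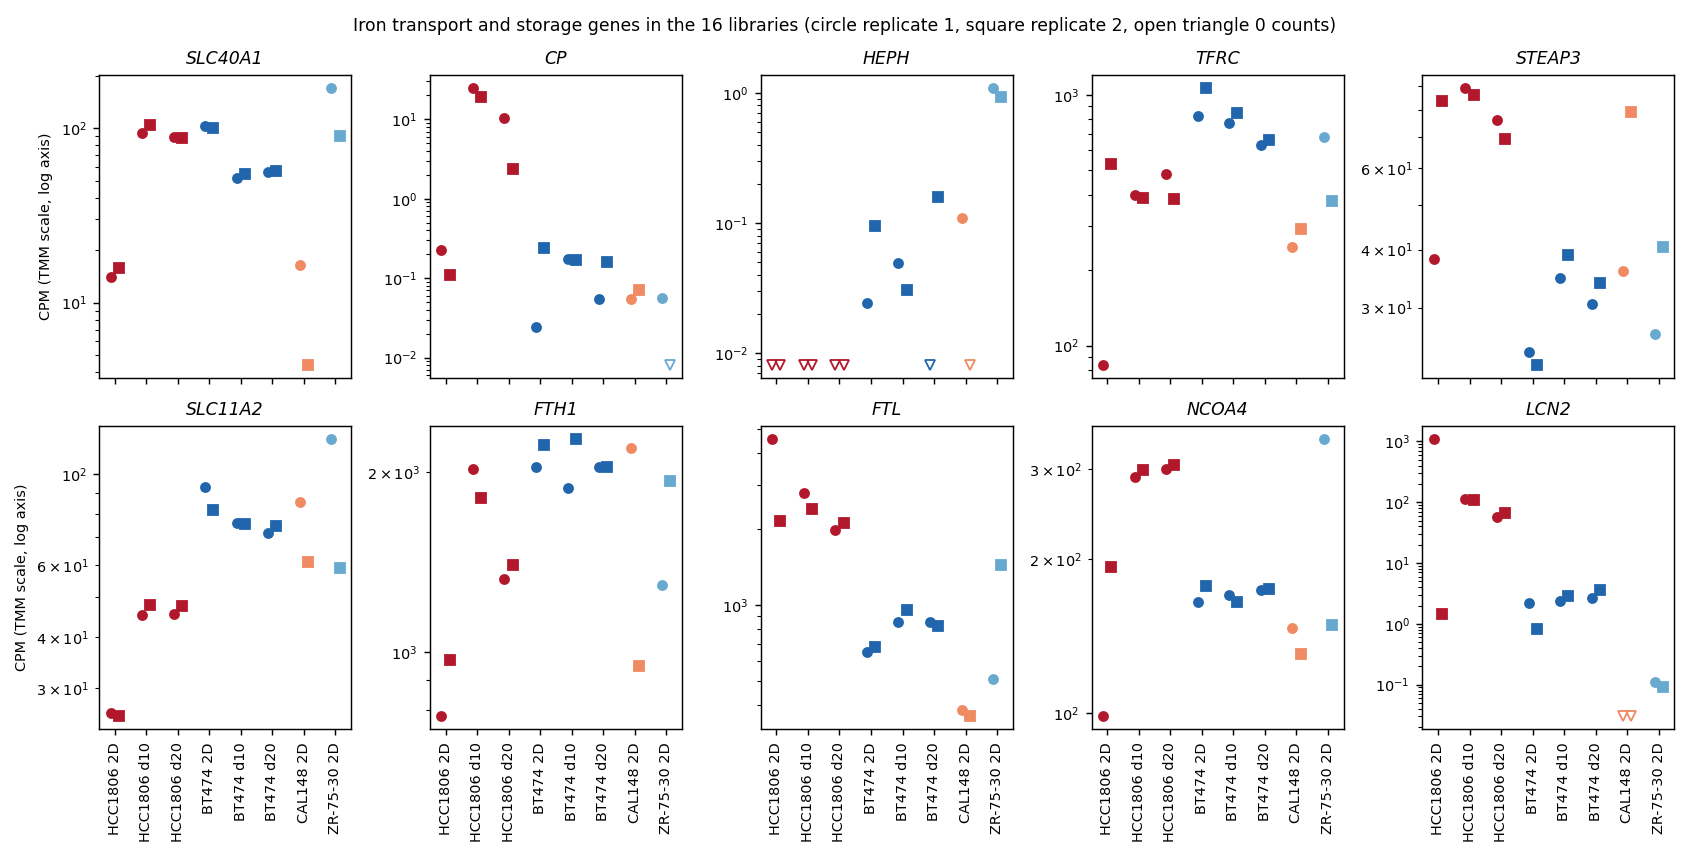
CPM of each member in the 16 libraries on log axes of differing range; circles are replicate 1, squares replicate 2, and open triangles mark libraries with 0 counts. SLC40A1 is low in both HCC1806 monolayers (14.1 and 15.8 CPM) and high in all 4 HCC1806 spheroid libraries (88.1 to 103.6 CPM), whereas LCN2 differs 747-fold between the HCC1806 monolayers.

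The exporter SLC40A1 rose in HCC1806 spheroids and fell in BT474 spheroids. This gene, on chromosome 2 (189560579 to 189583758, minus strand), was read at 14.1 and 15.8 CPM in the HCC1806 monolayers. It stood at 93.3 and 103.6 CPM in the day 10 spheroids and at 88.8 and 88.1 CPM in the day 20 spheroids. Every spheroid library was above both monolayers, and this pair, far apart over the whole transcriptome, agreed to within 1.12-fold for SLC40A1. The day 10 level was 6.67-fold higher (log2 fold change 2.74 ± 0.15 SE, edgeR adjusted p = 0.000216) and the day 20 level 6.01-fold higher (2.59 ± 0.14 SE, edgeR adjusted p = 0.000137).

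In BT474 the SLC40A1 level fell. The monolayers held 102.5 and 99.9 CPM, the day 10 spheroids 52.0 and 54.5 CPM, and the day 20 spheroids 55.9 and 56.7 CPM, with no overlap between monolayers and spheroids. The log2 fold changes were -0.98 ± 0.08 SE at day 10 (edgeR adjusted p = 4.24e-06) and -0.83 ± 0.08 SE at day 20 (edgeR adjusted p = 1.39e-05). The difference between the lines was itself tested and was 3.71 ± 0.20 on the log2 scale at day 10 (edgeR adjusted p = 0.000457) and 3.42 ± 0.20 at day 20 (edgeR adjusted p = 0.000347). It stayed called whichever of the 12 libraries was left out. With all 16 libraries in 1 fit the difference was as large but no longer called (adjusted p = 0.0599 and 0.0516).

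Over the 8 groups the order of SLC40A1 ran from ZR-75-30 (169.1 and 89.9 CPM) through BT474 monolayer, HCC1806 day 10 and day 20, BT474 day 20 and day 10 and HCC1806 monolayer to CAL148 (16.4 and 4.41 CPM). The top 3 groups overlapped in range with their neighbours, as did the bottom 2. Among 11184 genes with enough counts, those whose log2 level over the 8 group means ran closest to SLC40A1 were SLC35F5 (Pearson r = 0.98), ITPR2 (0.979) and MPP5 (0.978), and all these points share the same 16 libraries.

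CP, the multicopper ferroxidase, was nearly silent outside HCC1806 spheroids. It had 6 and 4 counts in the HCC1806 monolayers, 1085 and 742 at day 10, and 406 and 101 at day 20. In CPM these are 0.225 and 0.111, then 24.5 and 18.9, then 10.3 and 2.34. The day 10 mean was 96.4 times the first monolayer and 195 times the second, and the day 20 mean 28 and 56.6 times. Spheroid and monolayer values did not overlap at either day, but the day 20 replicates differed 4.39-fold.

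In the 10 libraries of the other lines CP had 0 to 11 counts, and BT474 spheroids (2 to 11 counts) overlapped BT474 monolayers (1 and 10 counts). Day 20 against day 10 in HCC1806 gave a CP log2 fold change of -1.78 ± 0.62 SE, which did not pass (edgeR adjusted p = 0.17). The CP gene on chromosome 3 (149162410 to 149222055) shares 11323 bases with HPS3 on the opposite strand. HPS3 was counted at 237 to 4186 in every library, and its part in the CP counts was not tested. The genes closest in pattern were DDX60 (r = 0.982), FNDC3B (0.971) and MXD1 (0.968) over 8 group means.

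HEPH, the membrane-bound relative of CP, had 0 counts in all 6 HCC1806 libraries. ZR-75-30 held 39 and 20 counts, and the BT474 and CAL148 libraries 0 to 6. A sum of 59 counts in ZR-75-30 against 0 in the HCC1806 monolayers makes HEPH at least 21.4-fold higher in ZR-75-30, taking 3 counts over the group as the floor. HEPH was too low for the test in the spheroid fits, so it is counted as not tested there.

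The uptake genes behaved less evenly. TFRC, the transferrin receptor, was at 83.9 and 528.7 CPM in the HCC1806 monolayers, and the spheroid libraries lay between these at 383.0 to 485.3 CPM. Day 10 and day 20 log2 fold changes of 0.42 ± 0.61 and 0.57 ± 0.61 SE did not pass (edgeR adjusted p = 0.713 and 0.59). Leaving out monolayer replicate 1 turned the day 10 value to -0.43, and leaving out replicate 2 raised it to 2.21, so no direction can be given for TFRC in HCC1806.

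In BT474 TFRC went from 824.9 and 1061 CPM in monolayers to 772.3 and 845.9 at day 10 and 631.2 and 663.3 at day 20. The day 20 libraries lay below both monolayers, with a log2 fold change of -0.53 ± 0.12 SE (edgeR adjusted p = 0.0141). At day 10 the groups overlapped and the value of -0.27 ± 0.12 SE did not pass (edgeR adjusted p = 0.191). The day 20 call was lost without either day 20 library (adjusted p = 0.1 and 0.0744) or monolayer replicate 2 (-0.32, adjusted p = 0.058).

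STEAP3, the endosomal ferrireductase, rose in BT474 from 24.1 and 22.6 CPM to 34.7 and 39.0 at day 10 and 30.6 and 34.0 at day 20. No spheroid library overlapped the monolayers. The log2 fold changes were 0.61 ± 0.09 SE (edgeR adjusted p = 0.000776) and 0.48 ± 0.09 SE (edgeR adjusted p = 0.00378). The day 20 call was lost without day 20 replicate 2 (0.40, adjusted p = 0.0623). In HCC1806 STEAP3 was at 38.2 and 83.9 CPM in monolayers and 69.2 to 89.2 in spheroids, and neither day passed (edgeR adjusted p = 0.25 and 0.539). Without monolayer replicate 2 STEAP3 gave 1.18 and 0.91 (adjusted p = 5.92e-07 and 8.45e-06), and without replicate 1 it gave 0.06 and -0.21 (adjusted p = 0.734 and 0.157).

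SLC11A2, which moves ferrous iron out of the endosome, was at 26.1 and 25.7 CPM in the HCC1806 monolayers, 45.2 and 47.9 at day 10 and 45.5 and 47.5 at day 20. All 4 spheroid libraries were about equally far above the monolayers, 1.78 to 1.81 times on the group means. The log2 fold change was 0.86 ± 0.15 SE at both days (edgeR adjusted p = 0.0114 and 0.00989). Leaving out either replicate of the spheroid group ended the SLC11A2 call at that day (adjusted p = 0.0763 to 0.11), without moving the value outside 0.84 to 0.91. Dropping the count filter ended both calls too (adjusted p = 0.068 and 0.0623).

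BT474 began higher for SLC11A2, at 93.1 and 81.7 CPM, and its spheroids lay below at 71.8 to 76.0 CPM. Those values of -0.25 and -0.24 did not pass (edgeR adjusted p = 0.0716 and 0.0754). The line difference was 1.11 ± 0.21 at day 10 (edgeR adjusted p = 0.0454) and 1.10 ± 0.21 at day 20 (edgeR adjusted p = 0.0336). It was lost in 10 of the 12 fits that left out 1 library, at sizes of 1.04 to 1.20, and without a count filter (adjusted p = 0.212 and 0.156) or with all 16 libraries (0.31 and 0.255).

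**Figure D2:**
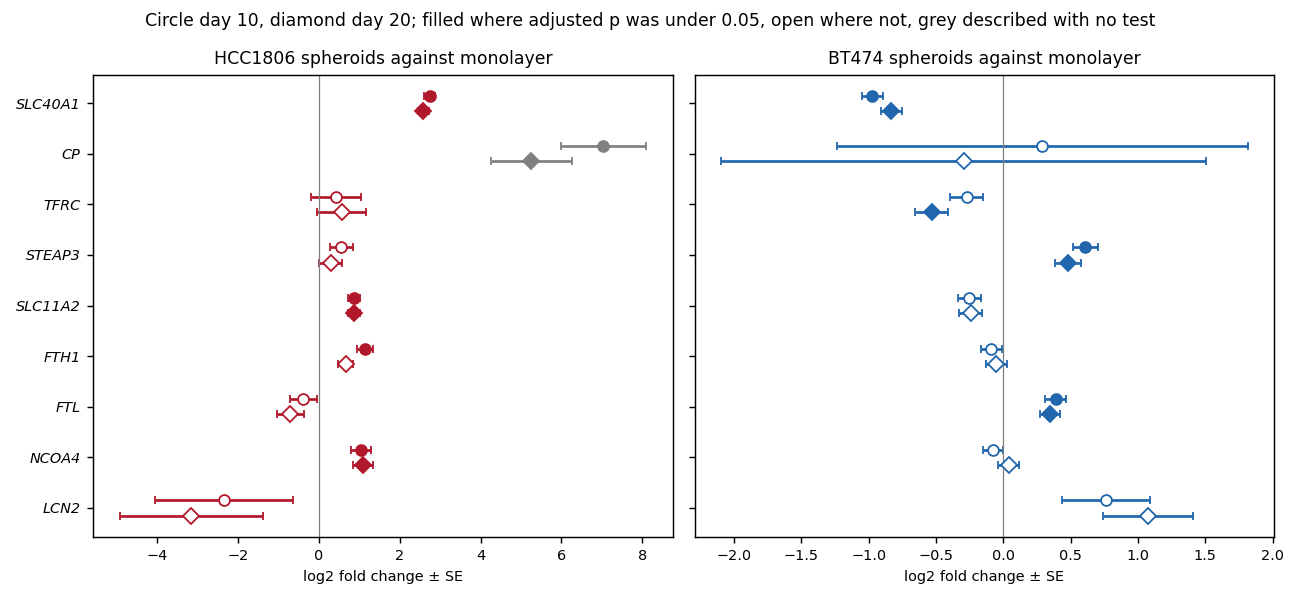
Log2 fold change ± SE of 9 members in spheroids against monolayers of the same line, from edgeR; the horizontal scales of the 2 panels differ. SLC40A1 stands right of zero in HCC1806 (2.74 and 2.59) and left of zero in BT474 (-0.98 and -0.83); grey CP points in HCC1806 are described with no test.

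The ferritin chains changed separately. FTH1, the heavy chain with ferroxidase activity, was at 784.1 and 970.8 CPM in the HCC1806 monolayers, 2021 and 1808 at day 10 and 1328 and 1399 at day 20. All 4 spheroid libraries were above both monolayers, and both day 20 libraries were below both at day 10. The log2 fold change was 1.15 ± 0.19 SE at day 10 (edgeR adjusted p = 0.0107) and 0.66 ± 0.19 SE at day 20, which did not pass (edgeR adjusted p = 0.0609). The day 10 call of FTH1 was lost without either day 10 library (adjusted p = 0.104 and 0.0805).

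FTL, the light chain that aids core formation, was at 4538 and 2152 CPM in the HCC1806 monolayers, 2772 and 2391 at day 10 and 1988 and 2118 at day 20. The first monolayer was above every spheroid library, and the second lay between the day 10 and the day 20 libraries. Neither day passed against monolayers (-0.38 ± 0.34 and -0.70 ± 0.34 SE, edgeR adjusted p = 0.521 and 0.217). Leaving out monolayer replicate 1 turned the day 10 value to 0.26 (adjusted p = 0.0529), and leaving out replicate 2 gave -0.83 (adjusted p = 1.85e-06), so no direction is given for FTL there. From day 10 to day 20 FTL fell by 0.32 ± 0.08 SE on the log2 scale (edgeR adjusted p = 0.023) and FTH1 fell by 0.48 ± 0.08 SE (edgeR adjusted p = 0.0023). The FTL call was lost without day 10 replicate 1 (-0.21, adjusted p = 0.276), day 20 replicate 1 (0.187) or day 20 replicate 2 (0.0672).

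In BT474 FTL rose and FTH1 did not pass. FTL went from 648.4 and 682.6 CPM to 853.5 and 951.1 at day 10 and 858.0 and 822.5 at day 20, with no overlap. The log2 fold changes of FTL were 0.39 ± 0.08 SE (edgeR adjusted p = 0.00469) and 0.35 ± 0.08 SE (edgeR adjusted p = 0.00853). The day 10 call was lost without day 10 replicate 2 (0.36, adjusted p = 0.0595) and the day 20 call without day 20 replicate 1 (0.32, adjusted p = 0.074). FTH1 held 2037 and 2221 CPM in monolayers and 1883 to 2268 in spheroids, with values of -0.09 ± 0.08 and -0.05 ± 0.08 SE (edgeR adjusted p = 0.538 and 0.753).

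The balance of the 2 ferritin chains per listed gene length differed between lines. The size of the ratio depends on these lengths, which are the same for every library. The FTL to FTH1 ratio of FPKM was 13.4 and 5.12 in HCC1806 monolayers and 3.06 to 3.50 in HCC1806 spheroids. BT474 stood at 0.736 and 0.711 in monolayers and 0.933 to 1.05 in spheroids, CAL148 at 0.403 and 0.884, and ZR-75-30 at 0.91 and 1.72. All 6 HCC1806 libraries were thus above all 10 others, and the spheroids of HCC1806 and BT474 lay closer to each other than their monolayers did. Ferritin has many processed copies, but 25 FTH1 pseudogenes held only 0.432% to 1.66% of the parent's counts and 16 FTL pseudogenes 0.0436% to 0.216%. How reads matching several copies were treated is not given in the sources used here.

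The ratio of receptor to exporter also differed. TFRC to SLC40A1 in FPKM was 3.26 and 18.4 in HCC1806 monolayers and 2.06 to 3.00 in its spheroids. In BT474 it was 4.42 and 5.83 in monolayers, 8.16 and 8.52 at day 10 and 6.19 and 6.42 at day 20. Spheroids lay below both monolayers in HCC1806 and above both in BT474. CAL148 stood at 8.24 and 36.3, and ZR-75-30 at 2.2 and 2.3 in spite of its uneven pair.

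**Figure D3:**
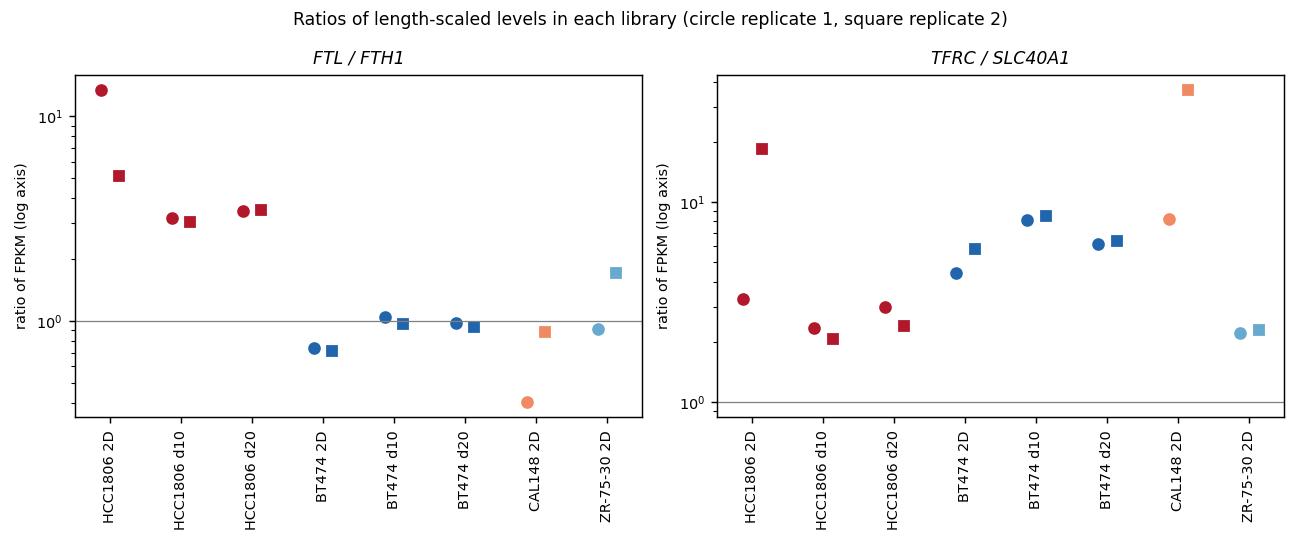
Ratios of the authors' FPKM for FTL to FTH1 (left) and TFRC to SLC40A1 (right) in each library on log axes; circles are replicate 1 and squares replicate 2. The FTL to FTH1 ratio is 3.06 or more in all 6 HCC1806 libraries, and the TFRC to SLC40A1 ratio is 2.06 to 3.00 in HCC1806 spheroids against 6.19 to 8.52 in BT474 spheroids.

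NCOA4, the cargo receptor for ferritin breakdown, was at 98.7 and 192.8 CPM in the HCC1806 monolayers, 288.8 and 298.1 at day 10 and 300.0 and 305.7 at day 20. Spheroids were above both monolayers and nearly equal to each other. The log2 fold changes of 1.04 ± 0.25 SE (edgeR adjusted p = 0.0387) and 1.09 ± 0.25 SE (edgeR adjusted p = 0.0283) passed. The size of the NCOA4 change depended on the monolayer, since day 10 gave 0.60 without replicate 1 and 1.56 without replicate 2, and the call was kept in only 2 of 12 fits that left out 1 library. In BT474 all 6 libraries lay between 164.5 and 176.9 CPM and neither day passed (edgeR adjusted p = 0.575 and 0.829).

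LCN2 was at 1080 CPM in the first HCC1806 monolayer (28836 counts) and 1.45 CPM in the second (52 counts), a 747-fold gap. The spheroids lay between, at 111.9 and 107.3 CPM at day 10 and 58.0 and 66.3 at day 20. Against the pair the values of -2.34 ± 1.71 and -3.16 ± 1.77 SE did not pass (edgeR adjusted p = 0.423 and 0.284), and without the first monolayer LCN2 turned to 6.24 at day 10 and 5.42 at day 20. No direction against monolayers can be given. From day 10 to day 20 the replicates were close and the value of -0.81 ± 0.21 SE did not pass (edgeR adjusted p = 0.0534).

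BT474 had little LCN2, 2.2 and 0.810 CPM in monolayers and 2.36 to 3.62 in spheroids (edgeR adjusted p = 0.181 and 0.0614). CAL148 had 0 counts in both libraries, and ZR-75-30 had 4 and 2. The genes closest to LCN2 over the 8 group means were C1S (r = 0.993), HTRA1 and BHLHE41 (both 0.991), where the HCC1806 monolayer point is the mean of that unequal pair.

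**Figure D4:**
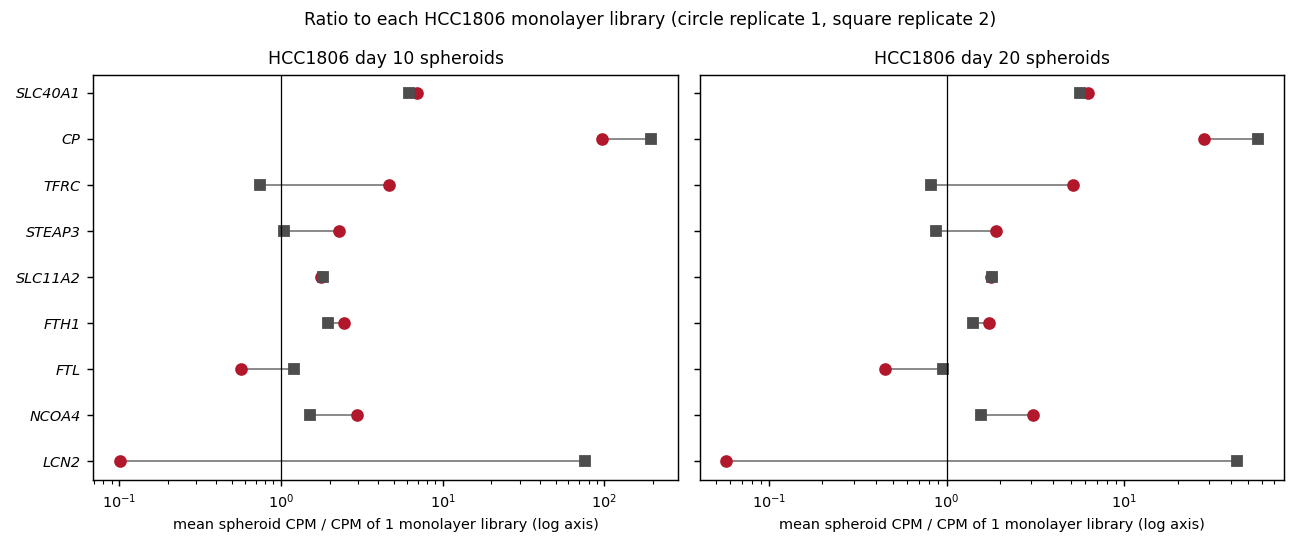
Mean CPM of HCC1806 spheroids divided by the CPM of each monolayer library, for day 10 (left) and day 20 (right), on log axes; circles use monolayer replicate 1 and squares replicate 2. SLC40A1 (6.97 and 6.24 at day 10) and SLC11A2 (1.78 and 1.81) give nearly 1 answer, whereas TFRC (4.69 and 0.744) and LCN2 (0.101 and 75.8) fall on both sides of 1.

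Counted over the set without CP, 4 of the 8 tested members were higher in HCC1806 day 10 spheroids (SLC40A1, FTH1, SLC11A2 and NCOA4) and 0 lower, where 5.14% of all 20929 genes tested were called higher and 3.58% lower. At day 20, 3 of 8 were higher (SLC40A1, SLC11A2 and NCOA4) and 0 lower, against 6.24% and 4.85% of all genes. The median log2 fold change of these 8 was 0.71 at day 10 and 0.61 at day 20, and that of all genes 0.00. Both days share their monolayers. In a fit of the 6 HCC1806 libraries alone edgeR called 0 of the 8 at either day, with 4 and 3 at an unadjusted p under 0.05, and 0% and 0.0106% of all genes. SLC40A1 then gave 2.68 and 2.53 (adjusted p = 0.0836 and 0.0815). With all 16 libraries 1 of the 8 was called at each day, SLC40A1.

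Epithelial markers moved with these HCC1806 results. Their summed CPM was 4780 and 7030 in the monolayers, 3930 and 4290 at day 10 and 2940 and 3130 at day 20, and 2 of 6 were called lower at day 10 and 4 of 6 at day 20. Markers of other cell types summed to 22.1 and 51.7, then 67 and 68.9, then 80.6 and 94.0 CPM, with 0 and 2 of 8 tested called higher. Their part in the results was not tested. In bulk RNA, fewer cells of a kind and less RNA per cell cannot be told apart.

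Between HCC1806 day 20 and day 10, 2 of 9 tested members were lower (FTH1 and FTL) and 0 higher, with 3.6% of all 20606 genes called lower and 3.2% higher. Both calls came from the 10 libraries that leave out the HCC1806 monolayers. With those included edgeR called 0 members, and 1 (FTH1) had an unadjusted p under 0.05. HCC1806 alone also gave 0 calls by edgeR, with 0 at an unadjusted p under 0.05.

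In BT474 at day 10, 2 of 9 tested members were higher (FTL and STEAP3) and 1 lower (SLC40A1), against 6.58% and 5.67% of all genes. At day 20, 2 were higher (FTL and STEAP3) and 2 lower (SLC40A1 and TFRC), against 7.4% and 7.24%. A fit of BT474 alone called as many, 3 and 4. A fit that added the unequal HCC1806 monolayers called 0 members at either day (SLC40A1 adjusted p = 0.0528 and 0.0677, with unmoved values of -0.97 and -0.83). Day 20 against day 10 called 0 of 9 members by edgeR, DESeq2 and limma, with 0 at an unadjusted p under 0.05 by edgeR, against 0.0922% of all genes higher and 0.189% lower. Epithelial marker sums overlapped between BT474 monolayers (8120 and 10400 CPM) and spheroids (8170 to 9360 CPM), and 1 of 6 markers was called lower at each day. Markers of other cell types summed to 81.9 and 85.4 CPM in BT474 monolayers, 101 to 119 at day 10 and 85.8 to 96.8 at day 20, with no overlap, and 1 of 7 tested (COL1A1) was called higher at day 10. Their part in the results was not tested.

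For the line difference in the spheroid effect, 2 of 9 members were called at each day, SLC40A1 and SLC11A2 both times, where 1.35% of all genes were called at day 10 and 2.77% at day 20. FTH1 had a difference of 1.23 ± 0.27 at day 10 (edgeR adjusted p = 0.0669) and NCOA4 of 1.12 ± 0.35 (edgeR adjusted p = 0.162), neither of which passed. Line and medium cannot be told apart in these differences.

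Among monolayers in RPMI, HCC1806 against ZR-75-30 gave 4 called members of 9 tested, against 20.5% of all 19594 genes, and the median of all genes was 0.19. SLC40A1 was lower in HCC1806 (-3.07 ± 0.65 SE, edgeR adjusted p = 0.018), with 14.1 and 15.8 CPM against 169.1 and 89.9. SLC11A2 was lower too (-1.75 ± 0.42 SE, edgeR adjusted p = 0.0269). HEPH was lower as given above, but it passed the count filter of this fit only through ZR-75-30, where it is high. Its call (edgeR adjusted p = 0.0416), 1 of the 4, is therefore no support. LCN2 was higher (edgeR adjusted p = 0.0374), but its log2 value of 12.40 dropped to 3.72 without the first HCC1806 monolayer. The LCN2 call was lost without any 1 BT474 or ZR-75-30 library (adjusted p = 0.0511 to 0.193) and in limma on FPKM (adjusted p = 0.0931 and 0.2). The HEPH call was lost without any 1 of the HCC1806, BT474 or ZR-75-30 libraries (adjusted p up to 0.147), that of SLC11A2 without ZR-75-30 replicate 1 (-1.23, adjusted p = 0.128) or any BT474 or CAL148 library, and that of SLC40A1 without ZR-75-30 replicate 1 (-2.64, adjusted p = 0.0846).

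Among monolayers in DMEM, CAL148 against BT474 gave 1 called member of 9, against 6.37% of all genes. SLC40A1 was at 16.4 and 4.41 CPM in CAL148 and at 102.5 and 99.9 in BT474 (-3.25 ± 0.66 SE, edgeR adjusted p = 0.031), a call lost without any 1 CAL148, BT474 or ZR-75-30 library (adjusted p = 0.0501 to 0.136). TFRC was at 247.0 and 291.5 CPM in CAL148, below both BT474 libraries, and did not pass (-1.80 ± 0.76 SE, edgeR adjusted p = 0.197). LCN2 had 124 counts in BT474 (2.2 and 0.810 CPM) against 0 in CAL148, at least 39.3-fold more by the floor. That difference did not pass either (-8.69 ± 3.99 SE, edgeR adjusted p = 0.244).

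A further 68 genes of iron handling were read in 5 lists, of which 60 were tested in the spheroid fits. In HCC1806, 5 were higher and 4 lower at day 10 and 8 higher and 5 lower at day 20, with medians of 0.07 and 0.03 beside 0.00 for all genes. In BT474, 4 were higher and 6 lower at each day, with medians of -0.07 and -0.05. The 4 higher at day 10 include STEAP4 and STEAP2, with 26 and 10 counts over that group and 0 in the BT474 monolayers. The count filter ran over both lines, so genes this low in BT474 could enter through HCC1806 spheroids. Called genes thus made up 15% and 21.7% of those tested in HCC1806, beside 8.72% and 11.1% of all genes. In BT474 they made up 16.7% at each day, beside 12.2% and 14.6% of all genes, close to that background. For each list below the share of all genes called is that given for the members at the same day. The HCC1806 calls come from the same 12-library fit as the members, with the same pair of monolayers.

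Uptake and reduction genes (10 of 11 tested) held the largest called changes of these lists in both lines. STEAP4, a ferrireductase of the same family as STEAP3, was higher in HCC1806 spheroids by 3.36 ± 0.72 SE at day 10 (edgeR adjusted p = 0.0304) and 3.68 ± 0.73 SE at day 20 (edgeR adjusted p = 0.0199), from 0.711 CPM to 7.22 and 9.04. CYBRD1, a membrane ferrireductase of the duodenum, was higher by 2.01 ± 0.35 SE (edgeR adjusted p = 0.0126) and 1.90 ± 0.35 SE (edgeR adjusted p = 0.0134), from 36.0 CPM to 145.7 and 134.7. In BT474 STEAP4 was at 0 counts in both monolayers and at least 6.76-fold and 7.37-fold higher at day 10 and day 20, still at only 0.213 and 0.266 CPM. STEAP2, of the same family, was at 0 counts there too and at least 2.6-fold higher at day 10. It then had only 10 counts over the group (0.0857 CPM), close to the floor. LTF, lactoferrin, was lower in BT474 by -3.34 and -2.40 (edgeR adjusted p = 0.0122 and 0.0454), from 1.72 CPM. SLC39A14, an importer of iron outside transferrin, was lower in BT474 by -0.52 and -0.83 (edgeR adjusted p = 0.0035 and 0.000106), and its relative SLC39A8 by -0.99 at day 20 (edgeR adjusted p = 0.0028).

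Sensing and hormonal genes (12 of 14 tested) had 2 called higher in HCC1806 at day 10 and 5 at day 20, with 0 lower. EPAS1 (HIF2A), a hypoxia-inducible factor whose RNA carries an iron-responsive element, was higher at day 10 by 1.83 ± 0.24 SE (edgeR adjusted p = 0.00523), from 131.9 to 458.8 CPM, and at day 20 by 1.53 (edgeR adjusted p = 0.0079). BMP2, a ligand that can induce hepcidin, was higher by 1.90 at day 10 (edgeR adjusted p = 0.043) and 2.42 at day 20 (edgeR adjusted p = 0.0185). NEO1, neogenin, a partner of hemojuvelin, was higher at day 20 by 2.04 ± 0.46 SE (edgeR adjusted p = 0.0253). FBXL5, the iron-sensing ligase subunit that targets IRP2, gave 0.61 at day 10 (edgeR adjusted p = 0.0889) and was higher at day 20 by 0.77 (edgeR adjusted p = 0.0379). The IRP genes ACO1 (0.87 and 0.64) and IREB2 (0.79 and 0.99) did not pass in HCC1806 (edgeR adjusted p = 0.0711 to 0.323), nor did they in BT474 (edgeR adjusted p = 0.14 to 1). In BT474 EPAS1 was higher at day 10 by 0.52 (edgeR adjusted p = 0.00354), NEO1 lower by -0.42 (edgeR adjusted p = 0.00722) and SMAD7, an inhibitor of BMP signalling, lower at both days by -0.63 and -0.50 (edgeR adjusted p = 0.0054 and 0.0194).

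Cytosolic handling genes (9 of 11 tested) had 1 called higher and 1 lower in HCC1806 at day 10, and 0 and 1 at day 20. The gene of this list called higher was CDC14A (2.04 ± 0.50 SE, edgeR adjusted p = 0.0407). Whether CDC14A handles iron in these cells was not tested. GLRX3, a glutaredoxin of iron delivery, was lower in HCC1806 by -0.61 and -0.57 (edgeR adjusted p = 0.0281 and 0.0313), and 0 of 9 were called in BT474 at either day. HEPHL1, another copper oxidase related to HEPH, was at 11.8 CPM on average in HCC1806 monolayers and 1.31 and 1.93 in spheroids, with overlapping ranges (edgeR adjusted p = 0.201 and 0.263). FTMT, mitochondrial ferritin, had 0 counts in all 16 libraries.

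Haem genes (17 of 19 tested) had 0 higher and 2 lower at day 10 in HCC1806, and 1 higher and 3 lower at day 20. HMOX2, the constitutive haem oxygenase, was lower at day 10 by -0.83 ± 0.14 SE (edgeR adjusted p = 0.0097). BLVRB, a biliverdin reductase, was lower at day 20 by -1.88 ± 0.37 SE (edgeR adjusted p = 0.0161), and FLVCR1, a haem exporter, higher by 1.15 ± 0.26 SE (edgeR adjusted p = 0.0253). HMOX1, the haem oxygenase that frees iron from haem, did not pass in either line (edgeR adjusted p = 0.5 to 0.716). In BT474 SLC48A1, a haem transporter, was lower by -0.44 and -0.41 (edgeR adjusted p = 0.00477 and 0.00671) and FECH, ferrochelatase, by -0.39 at day 10 (edgeR adjusted p = 0.025), while PPOX (0.38, edgeR adjusted p = 0.0382) and BLVRA (0.32, edgeR adjusted p = 0.0152) were higher at day 20.

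Mitochondrial iron and iron-sulphur genes (12 of 13 tested) had medians of -0.55 and -0.61 in HCC1806, with 1 called lower at each day and 0 higher. GLRX5, a glutaredoxin of cluster transfer, was lower at day 20 by -1.04 ± 0.22 SE (edgeR adjusted p = 0.0225). In BT474 the medians were -0.04 and -0.05, and NFS1, the cysteine desulphurase of cluster assembly, was higher at day 20 by 0.35 (edgeR adjusted p = 0.0248).

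**Figure D5:**
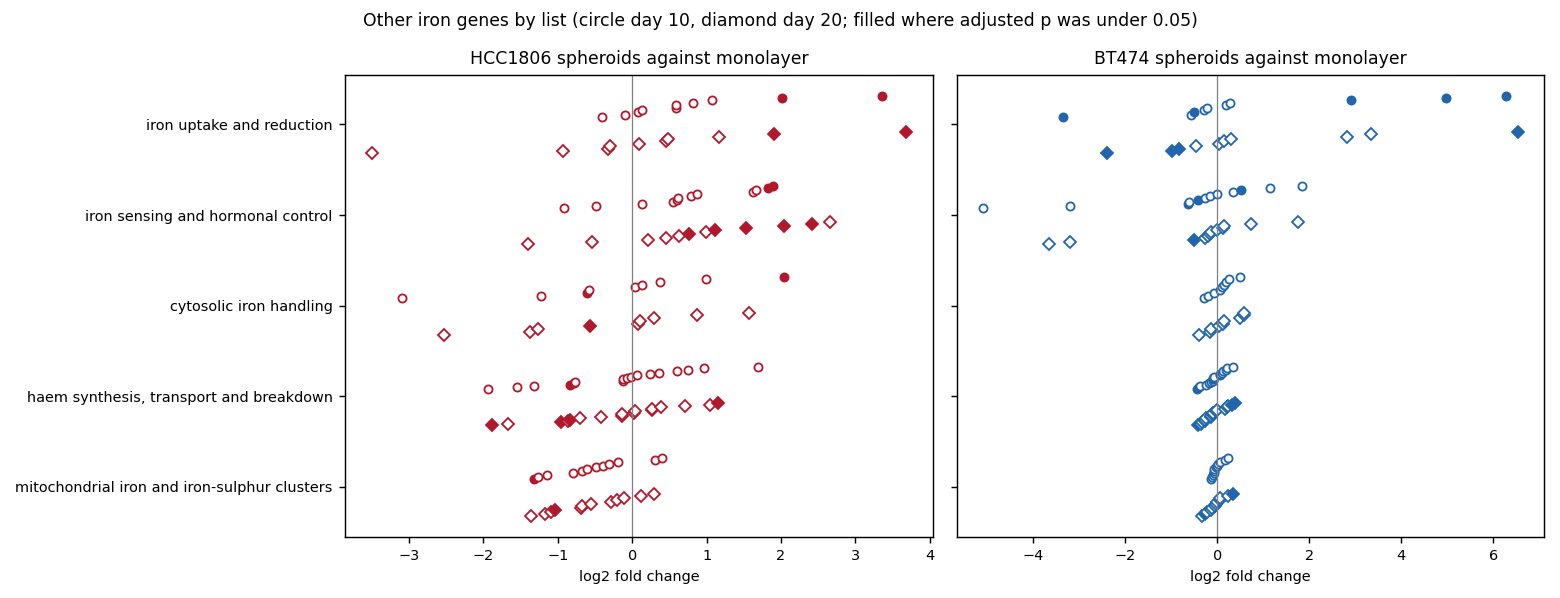
Log2 fold change of the 60 other iron genes tested, 1 point per gene, in spheroids against monolayers of HCC1806 (left) and BT474 (right), grouped by list; circles are day 10, diamonds day 20, and filled points passed the adjusted p threshold. In BT474 most genes outside the uptake and sensing lists lie near zero; STEAP4 and STEAP2 on its far right were at 0 counts in the monolayers, so their position is a fitted value and no measured fold.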

How the data were processed

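The authors' deposited counts are whole reads per gene for 58735 genes. Per the submitters' processing notes, reads of 150 bp were aligned to GRCh38 with HISAT2 2.2.1 and counted with featureCounts 2.0.6. The strand setting is not given in the sources used here, so reads of overlapping genes on opposite strands cannot be told apart. The authors' deposited FPKM were used to compare genes per listed gene length and in alternatives.

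Counts were tested with edgeR 4.0.16 in R 4.3.3 (TMM, filterByExpr with minimum count 10 and total 15, robust quasi-likelihood test, Benjamini-Hochberg adjustment over all genes tested, called under 0.05). HCC1806 spheroids against monolayers and line differences used 12 libraries. BT474 comparisons and HCC1806 day 20 against day 10 used 10, without the HCC1806 monolayers, whose spread would enter the common error. Line pairs used the 8 monolayers. DESeq2 1.42.0 and limma 3.58.1 on log2(FPKM + 1) or log2(FPKM + 0.1) were alternatives. The procedure was tested on simulated data with 100 genes changed 2-fold and 100 changed 4-fold. It recovered 96% and 99% of them for BT474 day 10 against monolayer, but 3% and 50% for HCC1806 day 10. For the line difference at day 10 it recovered 0% and 2%, and for HCC1806 against ZR-75-30 0% and 0%. The simulation gave each gene 1 spread in all groups, pooled with the unequal pairs, and changed no other genes. Both settings differ from the data, where 8.72% of genes were called for HCC1806 day 10 and 20.5% for HCC1806 against ZR-75-30. These shares are thus no measure of the power in the data. With 2 libraries a group, a value that did not pass in HCC1806 against monolayers or between lines is still no sign of no change.

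Members and lists were chosen with earlier results of these data known. All members are named, and of each other list, per spheroid against monolayer comparison, up to 2 called genes with the largest change in each direction, plus genes named for their role after their values were seen (FBXL5, ACO1, IREB2, HEPHL1, HMOX1, FTMT, EPAS1 and SLC39A14 at day 20). Some genes that this rule takes are not reported here. Patterns were compared by Pearson r of log2 level over 8 group means, for genes with a mean of at least 5 CPM. Low counts were more often even than odd (1.15 to 1.55 to 1), so both mates of a pair may be counted, and precision from counts may be overstated.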

Additional observations from a re-analysis of the deposited data

Results flagged for a closer look

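The response to spheroid growth differed between HCC1806 and BT474 for 2 members by the test of the difference itself. SLC40A1 rose in HCC1806 and fell in BT474, a difference of 3.71 on the log2 scale at day 10 and 3.42 at day 20. SLC11A2 rose in HCC1806, with BT474 spheroids below their monolayers but not past the threshold, a difference of 1.11 at day 10 and 1.10 at day 20. The SLC11A2 difference was near the threshold: it was lost in 10 of 12 fits that left out 1 library, without a count filter, with all 16 libraries (adjusted p = 0.31 and 0.255) and with a replicate block (0.0829 and 0.0629). The SLC40A1 difference was kept in 12 of 12 such fits and lost with all 16 libraries (adjusted p = 0.0599 and 0.0516).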

How the results depend on the processing

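Of 27 pairs of member and comparison that were called, 27 kept their sign in every alternative that gave a value. The 27 include CP in HCC1806 spheroids against monolayers at both days, which is given above with no test and is no support. The number of members called moved by more than 1.5 times as follows, and the cause was not tested. These counts include CP. With all 16 libraries it was 2 and 2 in HCC1806 at day 10 and day 20 (5 and 4 with the reported settings), 0 for day 20 against day 10 (2), 0 and 0 in BT474 (3 and 4), 0 and 0 for the line difference (2 and 2) and 3 for CAL148 against BT474 (1). Of all genes, that fit called 3.84% and 4.96% in HCC1806, 0.00461% for day 20 against day 10 and 0.0415% and 0.0507% in BT474. It called 0.166% and 0.392% for the line difference and 24% for CAL148 against BT474. With 12 libraries 0 members were called for HCC1806 day 20 against day 10 and 0 and 0 for BT474, beside 0%, 0.129% and 0.234% of all genes. HCC1806 alone gave 0, 0 and 0. DESeq2 gave 5 and 4 for the line difference and 2 for CAL148 against BT474. Of all genes, DESeq2 called 11.8% and 12.5% for the line difference and 19.2% for CAL148 against BT474. limma gave 4 for the line difference at day 10 with either pseudocount, and for HCC1806 day 20 against day 10 it gave 1 with 0.1 and 4 with 1 added. No count filter gave 5 in BT474 at day 10 and 3 for CAL148 against BT474, and RLE scaling 1 for the line difference at day 10. Of all genes, limma called 3.67% (0.1 added) and 5.4% (1 added) for the line difference and 5.99% and 9.05% for day 20 against day 10. The fits with no count filter called 9.03% and 8.98% of all genes, and that with RLE scaling 1.36%.

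Leaving out 1 library gave 1 to 9 members in HCC1806 at day 10 and at day 20, 1 to 4 for day 20 against day 10, 2 to 5 in BT474 at each day, 1 to 8 for the line difference at each day, 0 to 5 for HCC1806 against ZR-75-30 and 0 to 3 for CAL148 against BT474. The log2 fold change ran over these fits from -0.43 to 2.21 for TFRC in HCC1806 at day 10, and for LCN2 from -3.32 to 6.24 at day 10 and -4.13 to 5.42 at day 20. In the line difference it ran from -0.58 to 0.56 and -0.68 to 0.43 for STEAP3 and from -4.09 to 5.45 and -5.21 to 4.36 for LCN2. FTL in HCC1806 at day 10 ran from -0.83 to 0.26. The turns came from leaving out 1 of the HCC1806 monolayers.

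Replicate numbers did not pair the libraries (correlations of replicate differences between groups from -0.595 to 0.23). With a replicate block 1 member was called in each line difference and 2 in HCC1806 against ZR-75-30. The calls lost were SLC11A2 (adjusted p = 0.0829 and 0.0629), HEPH (0.086) and LCN2 (0.0721), and the block changed no other call.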
